A study of Mus musculus with 4 samples.

Results

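The genes described here are 10 members of the Hippo pathway and of its transcriptional output, namely Yap1, Wwtr1, Amot, Amotl1, Amotl2, Lats1, Lats2, Tead1, Ccn1 and Ccn2. They were chosen by name from the 22063 genes measured, and all 10 passed the filter on low counts that left 11448 genes to test. RNA was sequenced from ID8 cells, a mouse ovarian cancer cell line that arose from ovarian surface epithelium. The 2 shCtrl libraries came from cells with a control shRNA, labelled WT, and the 2 shUSP9X libraries from cells in which USP9X was knocked down. The shRNAs of the study were carried by lentivirus in the vector pLKO.1-puro, and which USP9X shRNA the sequenced cells held, whether TGF-β had been added and at which oxygen level the cells grew are not given in the sources used here. The labels do not say that the replicates came from separate cultures, so the p-values below measure only the spread between these libraries, which may be technical. Depth by summed estimated counts was 17232006 (replicate 1) and 15611363 (replicate 2) for shCtrl, and 19978889 (replicate 1) and 17021261 (replicate 2) for shUSP9X.

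The Hippo pathway restrains cell growth. The kinases STK3 and STK4 activate LATS1 and LATS2, which phosphorylate the coactivators YAP (Yap1) and TAZ (Wwtr1) and so keep them out of the nucleus. Angiomotins (Amot, Amotl1, Amotl2) are junction and actin-bound scaffolds that bind YAP and TAZ and can hold them in the cytoplasm, and in the nucleus YAP and TAZ bind DNA through TEAD factors such as TEAD1. Ccn1 and Ccn2, which encode secreted matricellular proteins, are among the most used readouts of this output, and Amotl2 and Lats2 are known both as regulators and as targets of YAP and TAZ. USP9X is a deubiquitinase, and angiomotins and LATS kinases are among the proteins it has been reported to act on. Much of this control acts on protein level and location, which RNA does not measure.

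Usp9x itself was at 298 and 282 CPM (counts scaled to library size with edgeR's TMM factors) in the shCtrl libraries and at 19.7 and 20.5 CPM in the shUSP9X libraries. Both shUSP9X libraries lay far below both shCtrl libraries, with a log2 fold change of -3.85 ± 0.06 (SE, n = 2 per group, edgeR quasi-likelihood test, Benjamini-Hochberg adjusted p = 4.66e-26). All log2 fold changes below are shUSP9X over shCtrl, a gene was called at an adjusted p under 0.05, and errors are SE with n = 2 libraries per group unless stated otherwise. In bulk libraries fewer cells of a type and less RNA per cell cannot be told apart.

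The labelled cell type was checked against its markers. Of 11 ovarian surface epithelial and mesothelial markers, 9 lay above a floor of 3 counts in both groups, with a summed level of 1385 and 1413 FPKM (a level scaled for transcript length and library size) in shCtrl and of 1591 and 1562 FPKM in shUSP9X, and Krt7 was at or under the floor in every library. The most abundant of them, Krt19, was at 449 and 457 FPKM in shCtrl and at 493 and 471 FPKM in shUSP9X. The list moved in both directions, since of its 9 genes tested Krt8 (0.92), Krt18 (0.64) and Krt19 (0.12) were called higher and Lrrn4 (-1.64), Wt1 (-0.52), Cdh2 (-0.50), Msln (-0.47) and Gata4 (-0.18) lower in log2 fold change, and Krt19 was called lower (-0.17) once trends on GC content and length were removed. Leukocyte markers set the groups apart. Of 12, none lay above the floor in shCtrl and 4 did in shUSP9X (Ptprc, Adgre1, Itgam and Csf1r), with summed levels of 0.231 and 0.044 FPKM against 3.64 and 3.11 FPKM. Itgam, the most abundant, had 0 counts in both shCtrl libraries and 72 and 75 counts in the shUSP9X libraries, while Cd3e, Lyz2, C1qa, C1qb, S100a8 and S100a9 were among those at or under the floor everywhere. Fibroblast and pericyte markers summed to 113.8 and 113.2 FPKM in shCtrl and to 73.6 and 72.3 FPKM in shUSP9X, with 3 of 9 above the floor in both groups, Dcn the most abundant (log2 fold change -0.46, with Pdgfra at -2.87 and Col1a1 at -1.72) and Pdgfrb, Lum, Thy1 and Rgs5 at or under it in every library. With trends on GC content and length removed, Dcn was at -0.22, Pdgfra at -2.61 and Col1a1 at -1.75. Dcn was at 0.09 and not called when only the trend on GC content was removed. Endothelial markers summed to 2.43 and 2.85 FPKM against 1.62 and 1.68 FPKM, with 2 of 7 above the floor in both groups, Tek the most abundant and Cdh5, Kdr, Emcn and Cldn5 at or under it. The part of these shifts in the members' values was not tested.

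Of the 10 members, 7 were lower in shUSP9X (Wwtr1, Amot, Amotl1, Lats1, Lats2, Tead1 and Ccn1), 1 was higher (Amotl2) and Yap1 and Ccn2 were not called. These counts stand against a table in which a large part of all genes was called, with 33.6% of the genes tested lower and 33.8% higher. The median log2 fold change of the members was -0.41, and that of all genes tested was -0.00051. At the cutoff of the study (p under 0.05 and fold change above 1.5), 3 members were lower (Tead1, Amot and Ccn1) and none was higher, where 18.7% of all genes tested were lower and 10.8% higher. In each of the 10 the CPM values of the groups did not overlap, which was also the case for 82.3% of all genes tested.

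**Figure D1:**
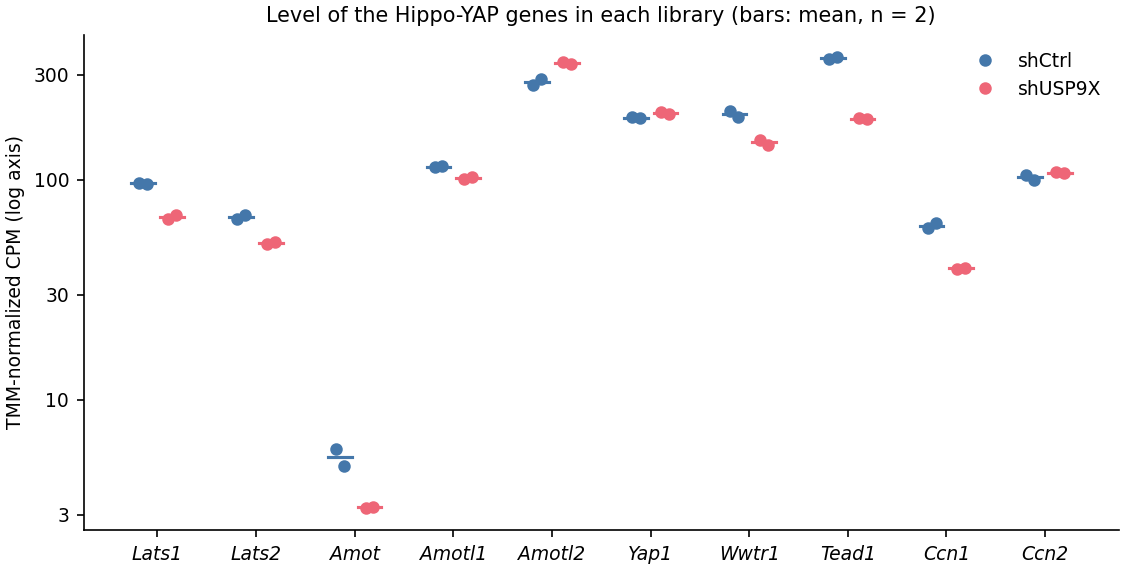
Level of each member (TMM-scaled CPM, log axis) in each of the 4 libraries, shCtrl and shUSP9X. Apart from Amot in shCtrl (5.997 and 4.996 CPM), the 2 points of a group lie close together. The gap between groups is widest for Tead1, Amot and Ccn1.

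Fold changes over the table followed the base composition and length of the transcripts, which bears on most of the members. Over the genes tested, the log2 fold change had a Spearman's rho of 0.447 with GC content and of -0.331 with transcript length, given as a description across genes, which are not independent replicates. The members range from 43.0% GC (Lats1) to 56.6% GC (Amotl2) and from 2019 nt (Ccn1) to 9964 nt (Tead1), by the longest protein-coding transcript in GENCODE M21. The fit was therefore repeated with an offset that removes each library's trend on GC content and length. The trend entered the fit as known, so the SE, intervals and p-values of offset fits leave out its own error. With that offset 27.5% of all genes tested were called lower and 35.8% higher, and of the members 2 were lower (Lats2 and Ccn1), 4 were higher (Amotl1, Amotl2, Lats1 and Tead1) and 4 were not called. The median of the members was then 0.01, against 0.04 for all genes tested, and at the cutoff of the study only Ccn1 was lower and none was higher, where 12.7% of all genes tested were lower and 11.6% higher. Usp9x, the targeted gene (11887 nt, 40.0% GC), was at -2.32 ± 0.06 with the offset, against -3.85 ± 0.06 without it. The offset thus also lessened the fall of the gene that was knocked down. Only Ccn1, Lats2 and Amotl2 were called in the same direction in both fits, and Amotl1, Lats1 and Tead1 were called in opposite directions. Whether the trend is technical or belongs to the cells was not tested, so both values are given for each member.

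**Figure D2:**
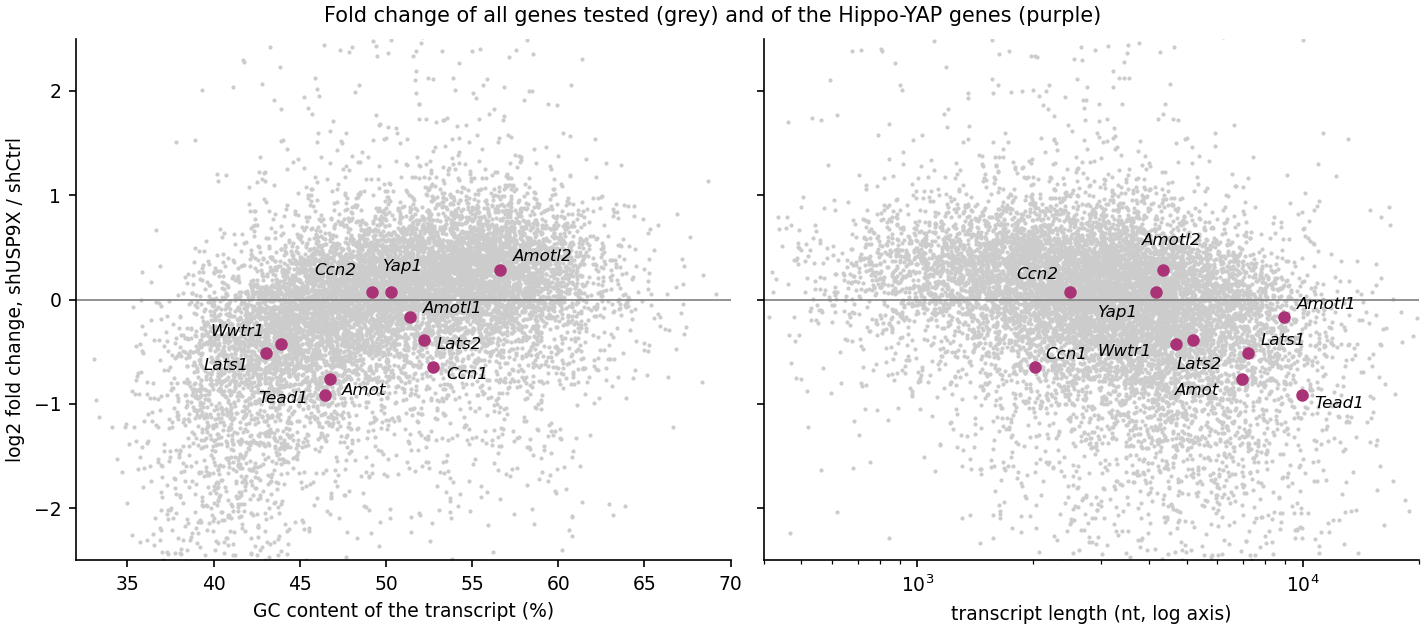
Log2 fold change without the offset against GC content (left) and transcript length (right, log axis) of all genes tested (grey) and of the 10 members (purple). The axis is limited to 2.5 in each direction, which leaves out 332 of 11448 genes. The low-GC genes Lats1 and Wwtr1 and the long Tead1 lie low within a cloud that itself runs downwards on that side, whereas Ccn1, short and at 52.8% GC, lies below the bulk of the cloud around it.

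**Figure D3:**
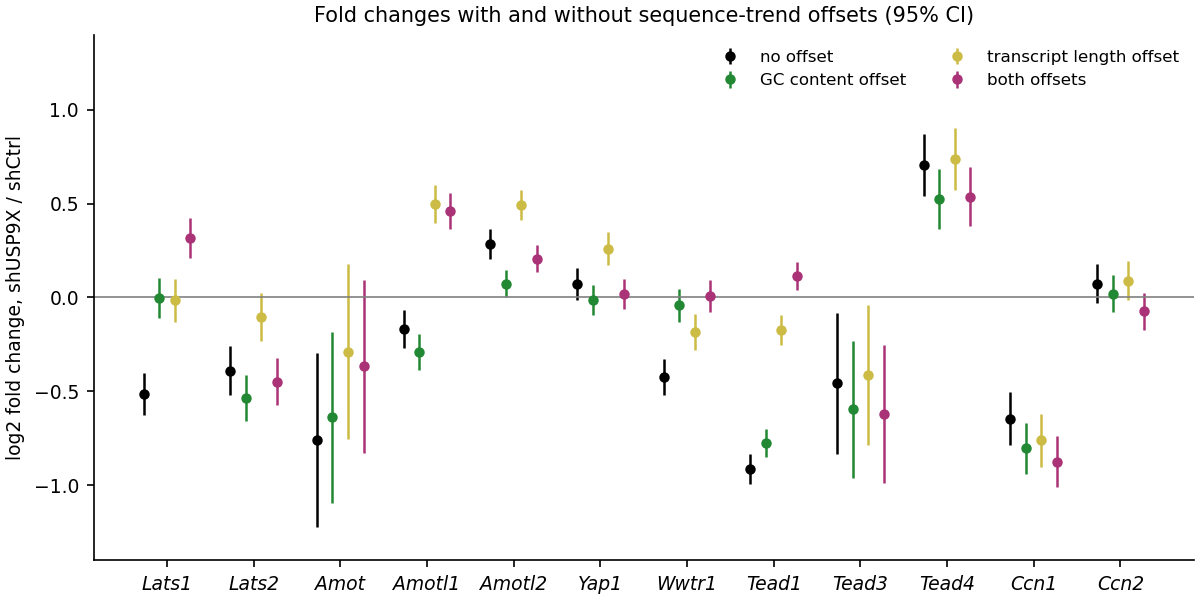
Log2 fold change (shUSP9X over shCtrl) of each member and of Tead3 and Tead4 with its 95% interval, fitted without an offset and with offsets on GC content and length. Ccn1 stays low under each of them, while Lats1, Amotl1 and Tead1 lie on opposite sides of 0 with and without the joint offset.

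The coactivators came first. Yap1 (chr9:7931999-8004596, minus strand of GRCm38, 50.3% GC) was at 192 and 190 CPM in shCtrl and at 203 and 199 CPM in shUSP9X. The shUSP9X libraries were the higher pair by a narrow margin, and on the FPKM scale the groups overlapped, at 49.8 and 51.5 FPKM against 53.6 and 50.1 FPKM. The log2 fold change was 0.07 ± 0.04 with a 95% interval from -0.01 to 0.16 (edgeR adjusted p = 0.131), and 0.02 with the offset (edgeR adjusted p = 0.707). With an offset on length alone Yap1 was called higher at 0.26 (edgeR adjusted p = 7.02e-06), and with one on GC content alone it was at -0.01 (edgeR adjusted p = 0.766). Wwtr1, which encodes TAZ (chr3:57455649-57575910, minus strand, 43.9% GC), was at 205 and 192 CPM in shCtrl and at 152 and 144 CPM in shUSP9X. Both shUSP9X libraries were below both shCtrl libraries, and Wwtr1 fell by 0.43 ± 0.05 on the log2 scale (edgeR adjusted p = 8.33e-09). With the offset the difference was 0.01, with a 95% interval from -0.08 to 0.09 (edgeR adjusted p = 0.892). An offset on GC content alone gave -0.04 (edgeR adjusted p = 0.407), and one on length alone left it called lower at -0.19 (edgeR adjusted p = 0.00115).

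Per length, YAP and TAZ transcripts together summed to 93.7 and 93.0 FPKM in shCtrl and to 85.5 and 80.5 FPKM in shUSP9X. Yap1 made up 53.1 and 55.4% of that sum in shCtrl and 62.7 and 62.2% in shUSP9X. The FPKM ratio of Yap1 to Wwtr1 was 1.13 and 1.24 in shCtrl and 1.68 and 1.65 in shUSP9X, with no overlap. This is a difference of 0.49 on the log2 scale (exact permutation p = 0.333, two-sided, the smallest that 2 libraries against 2 allow). No ratio compared in this way can therefore reach a p under 0.05, and the 6 ratios are given as descriptions. No offset on GC content and length was applied to FPKM values, and with the offset the log2 fold changes of Yap1 and Wwtr1 were nearly equal (0.02 and 0.01).

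The 2 LATS kinases had nearly equal levels per length, at 13.5 and 13.7 FPKM for Lats1 and 13.5 and 13.8 FPKM for Lats2 in shCtrl. Lats1 (chr10:7681214-7716460, plus strand, 43.0% GC, 7209 nt) was at 96.9 and 95.7 CPM in shCtrl and at 66.2 and 68.8 CPM in shUSP9X. Both shUSP9X libraries were lower, and Lats1 fell by 0.51 ± 0.06 on the log2 scale (edgeR adjusted p = 6.36e-09). With the offset for GC content and length it rose by 0.32 ± 0.05 (edgeR adjusted p = 1.03e-05), and with an offset for only 1 of the 2 properties the values were -0.003 (GC content) and -0.02 (length), neither of them called. The direction for Lats1 thus depends on how GC content and length are treated. Lats2 (chr14:57689662-57758388, minus strand, 52.2% GC, 5191 nt) was at 66.0 and 69.3 CPM in shCtrl and at 51.2 and 52.1 CPM in shUSP9X. The shUSP9X pair was again lower, and Lats2 fell by 0.39 ± 0.06 on the log2 scale (edgeR adjusted p = 5.22e-06), and by 0.45 ± 0.06 with the offset (edgeR adjusted p = 4.61e-07). With an offset on length alone Lats2 was at -0.10 and not called (edgeR adjusted p = 0.149). Lats2 shares its strand and part of its locus with the gene Gm49361, which had an estimated 10.54 counts in shCtrl replicate 1 and 0 in the other libraries.

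The summed level of the LATS kinases was 27.1 and 27.5 FPKM in shCtrl and 20.11 and 20.01 FPKM in shUSP9X. Lats1 made up 49.9 ± 0.2% of it in shCtrl and 49.4 ± 0.8% in shUSP9X (mean ± SD, n = 2). The ratio of Lats1 to Lats2 overlapped between the groups, with a log2 difference of -0.03 (exact permutation p = 0.667, two-sided). This holds without the offset only, since with it Lats1 was at 0.32 and Lats2 at -0.45.

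The angiomotins did not move together. Amotl2 (chr9:102716672-102733418, plus strand, 56.6% GC) was at 269 and 287 CPM in shCtrl and at 343 and 335 CPM in shUSP9X. Both shUSP9X libraries were higher, and Amotl2 rose by 0.29 ± 0.04 on the log2 scale (edgeR adjusted p = 5.3e-07), and by 0.21 ± 0.03 with the offset (edgeR adjusted p = 1.12e-05). An offset on GC content alone left 0.07 (edgeR adjusted p = 0.067), which was not called. Amotl1 (chr9:14541966-14645056, minus strand, 8957 nt) was at 114.5 and 114.9 CPM in shCtrl and at 101 and 103 CPM in shUSP9X. The shUSP9X pair was lower by little, and on the FPKM scale the groups overlapped, at 14.72 and 14.68 FPKM in shCtrl and 14.79 and 13.3 FPKM in shUSP9X. Amotl1 was lower by 0.17 ± 0.05 on the log2 scale (edgeR adjusted p = 0.0038) without the offset and higher by 0.46 ± 0.05 with it (edgeR adjusted p = 3.64e-09). With an offset on GC content alone it was called lower at -0.29 (edgeR adjusted p = 1.7e-05), and with one on length alone higher at 0.50 (edgeR adjusted p = 1.87e-09). For Amotl1 DESeq2 made no call (DESeq2 adjusted p = 0.0672). Amotl1 also lost its call without shUSP9X replicate 1 (-0.15, edgeR adjusted p = 0.0862).

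Amot (chrX:145446425-145505181, minus strand, 6957 nt), the founding member of the family, was far less abundant, at 104 and 79 counts in shCtrl and 64 and 55 counts in shUSP9X. Scaled, these were 5.997 and 4.996 CPM against 3.24 and 3.26 CPM, so both shUSP9X libraries were lower, and the shCtrl libraries differed from each other by more than the shUSP9X libraries did. Amot fell by 0.76 ± 0.23 on the log2 scale (edgeR adjusted p = 0.00437), the widest error of the 10 members. It was not called with the offset (-0.37, edgeR adjusted p = 0.153), by DESeq2 (-0.75, DESeq2 adjusted p = 0.0749) or without shCtrl replicate 1 (-0.61, edgeR adjusted p = 0.059).

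By FPKM, the angiomotin sum was 86.6 and 94.2 in shCtrl and 102.5 and 98.2 in shUSP9X. Amotl2 was the main transcript of the family in every library, with 81.6 and 83.6% of that sum in shCtrl and 85.0 and 85.8% in shUSP9X. Amotl1 had 16.3 ± 0.99% in shCtrl and 13.9 ± 0.64% in shUSP9X (mean ± SD, n = 2). Amot had 1.36 and 0.846% in shCtrl and 0.601 and 0.643% in shUSP9X. The ratio of Amot to Amotl1 differed by -0.57 and that of Amotl1 to Amotl2 by -0.27 on the log2 scale, each without overlap (exact permutation p = 0.333, two-sided). The difference for Amot to Amotl1 was -0.29 without shCtrl replicate 1 and -0.85 without shCtrl replicate 2. With the offset Amotl1 rose by more than Amotl2 (0.46 and 0.21), so the direction of the second ratio also depends on that treatment.

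**Figure D4:**
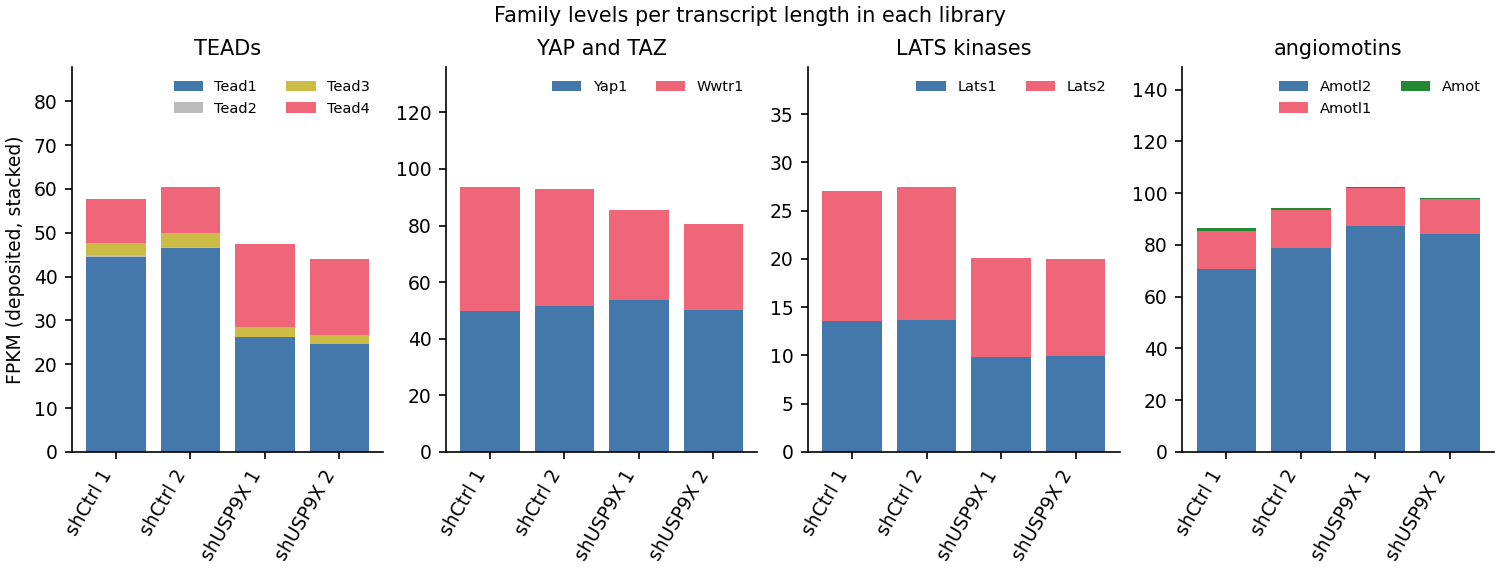
FPKM of each gene in the TEAD, YAP and TAZ, LATS kinase and angiomotin families, stacked by library. The Tead4 segment grows from 17.4 and 17.6% of the TEAD sum in shCtrl to 39.8 and 39.6% in shUSP9X.

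Tead1 showed the widest gap of the members without the offset. Tead1 (chr7:112679318-112906807, plus strand, 46.5% GC, 9964 nt) was at 354 and 360 CPM in shCtrl and at 190 and 188 CPM in shUSP9X. The libraries of a group were nearly equal, and Tead1 fell by 0.92 ± 0.04 on the log2 scale (edgeR adjusted p = 3.74e-17). With the offset on GC content and length the value was 0.11 ± 0.04, which was called higher (edgeR adjusted p = 0.00917). Offsets on GC content alone and on length alone left it lower, at -0.78 (edgeR adjusted p = 3.29e-13) and -0.17 (edgeR adjusted p = 0.000364). Of the genes tested, 280 (2.45%) are at least as long as Tead1. The error of the trend at that length is not in the SE or p-value given with the offset.

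Its paralogs, which bind the same DNA letters and the same coactivators, were read beside it. Tead4 was at 27.91 and 30.04 CPM in shCtrl and at 48.7 and 45.5 CPM in shUSP9X. Both shUSP9X libraries were higher, and Tead4 rose by 0.70 ± 0.08 on the log2 scale (edgeR adjusted p = 1.93e-08) and by 0.54 ± 0.08 with the offset (edgeR adjusted p = 1.38e-06). Tead4 was called higher in each of 17 alternatives, at 0.52 to 0.80. Tead3 was lower, at 6.98 and 7.91 CPM against 5.41 and 5.40 CPM, by 0.46 ± 0.18 on the log2 scale (edgeR adjusted p = 0.0289) and by 0.62 with the offset (edgeR adjusted p = 0.00382), and it lost its call in 4 of 17 alternatives. Tead2 had 4 and 6 counts in shCtrl and 8 and 3 counts in shUSP9X and was not tested.

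Summed over the 4 TEAD genes, the level was 57.7 and 60.5 FPKM in shCtrl and 47.4 and 44.1 FPKM in shUSP9X. The share of Tead1 was 77.1 and 76.9% in shCtrl and 55.1 and 55.5% in shUSP9X, and that of Tead4 17.4 and 17.6% against 39.8 and 39.6%. The ratio of Tead1 to the other TEADs was 3.37 and 3.33 in shCtrl and 1.23 and 1.25 in shUSP9X, a log2 difference of -1.44 without overlap (exact permutation p = 0.333, two-sided). This ratio, from FPKM values without the offset, shares the limit stated for the fold change of Tead1. With the offset the log2 fold change of Tead1 (0.11) was still below that of Tead4 (0.54), by less than without it.

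Of the members, Ccn1 was called most steadily. Ccn1, formerly Cyr61 (chr3:145646976-145649981, minus strand, 52.8% GC, 2019 nt), was at 60.5 and 63.2 CPM in shCtrl and at 39.2 and 39.9 CPM in shUSP9X. Both shUSP9X libraries were well below both shCtrl libraries, and Ccn1 fell by 0.65 ± 0.07 on the log2 scale (edgeR adjusted p = 4.35e-09). With the offset it fell by 0.88 ± 0.07 (edgeR adjusted p = 1.3e-11). It was the one member called in the same direction in each of 17 alternatives, with log2 fold changes from -0.88 to -0.61. Ccn2, formerly Ctgf (chr10:24595442-24598683, plus strand, 49.2% GC, 2490 nt), was at 105 and 99.4 CPM in shCtrl and at 108 and 107.5 CPM in shUSP9X. The shUSP9X pair was only just above shCtrl replicate 1, and by FPKM the groups overlapped, at 45.1 and 43.0 FPKM against 44.5 and 44.4 FPKM. The log2 fold change of Ccn2 was 0.07 ± 0.05 with a 95% interval from -0.03 to 0.18 (edgeR adjusted p = 0.201), and -0.07 with the offset (edgeR adjusted p = 0.186). Without shCtrl replicate 1 the value of Ccn2 was 0.13 and was called higher (edgeR adjusted p = 0.0435).

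Ccn1 and Ccn2, which are commonly read together, thus had different values in the same libraries. Ccn1 made up 40.1 and 42.5% of their summed FPKM in shCtrl and 30.1 and 30.6% in shUSP9X. The ratio of Ccn1 to Ccn2 was 0.669 and 0.738 in shCtrl and 0.432 and 0.441 in shUSP9X, a log2 difference of -0.69 without overlap (exact permutation p = 0.333, two-sided). Of the other CCN genes, only Ccn4 passed the filter, and it fell by 0.82 ± 0.04 on the log2 scale (edgeR adjusted p = 1.23e-15) and by 0.56 with the offset.

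The promoters of the members were searched for the core letters that TEAD factors bind, since 4 members are on the list of conserved YAP/TAZ targets and differ in direction. RefSeq windows of 300 bases (GRCm38.p6, 250 before to 50 after a start) were matched for 8 members, namely Yap1, Wwtr1, Amot, Amotl1, Amotl2, Lats1, Lats2 and Ccn1, with 2 windows each for Wwtr1 and Lats2. The letters GGAATG, searched on both strands, were in windows of 5 of them (6 of 10 windows, of which the 2 of Wwtr1 overlap and share 1 match), where 14.7% of all 32851 windows held them. The AP-1 letters TGANTCA were in none of these windows (7.81% of all windows), and the CArG box that SRF binds was in none either (1.63% of all windows), so no match overlapped another motif. Of the 23 genes on the target list, 16 had a window and 7 of these held GGAATG. A match says only that the letters are there, not that a factor binds. The RefSeq starts used for Amot, Amotl1, Amotl2 and Lats2 lie inside the gene spans given above, not at the ends of those spans. The stretches around the matches are printed to set the genes with a match beside each other, each in the direction of its gene with the 6 matching letters in capitals, so that CATTCC marks a match on the opposite strand.
Ccn1, from 103 bases before the start, chr3:145650073-145650098, minus strand: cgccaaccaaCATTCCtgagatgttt
Amotl2, from 65 bases before the start, chr9:102717729-102717754, plus strand: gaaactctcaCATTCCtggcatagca
Yap1, from 141 bases before the start, chr9:8004722-8004747, minus strand: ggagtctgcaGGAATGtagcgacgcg
Wwtr1, from 136 bases before the start, chr3:57576031-57576056, minus strand: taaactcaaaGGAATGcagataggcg
Lats2, from base 5 after the start, chr14:57746104-57746129, minus strand: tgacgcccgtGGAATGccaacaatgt

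Of these 5 genes, Ccn1 and Lats2 were lower and Amotl2 higher in both fits, and Yap1 was not called in either. Wwtr1 was lower without the joint offset and not called with it. With the length offset alone Yap1 was called higher and Wwtr1 lower, and Lats2 lost its call. Amotl2 lost its call with the GC content offset alone. The 250 bases before the start of Ccn1 (54.8% GC) and of Amotl2 (70.4% GC) are given in full, as the members on the target list that fell and rose and have a single match before the start, with the match in capitals.
Ccn1, chr3:145649986-145650235, minus strand: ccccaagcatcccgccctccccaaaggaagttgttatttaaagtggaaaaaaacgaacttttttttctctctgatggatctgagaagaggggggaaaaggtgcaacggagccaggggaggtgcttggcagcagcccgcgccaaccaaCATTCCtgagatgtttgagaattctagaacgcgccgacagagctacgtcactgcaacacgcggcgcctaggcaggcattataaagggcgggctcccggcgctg
Amotl2, chr9:102717554-102717803, plus strand: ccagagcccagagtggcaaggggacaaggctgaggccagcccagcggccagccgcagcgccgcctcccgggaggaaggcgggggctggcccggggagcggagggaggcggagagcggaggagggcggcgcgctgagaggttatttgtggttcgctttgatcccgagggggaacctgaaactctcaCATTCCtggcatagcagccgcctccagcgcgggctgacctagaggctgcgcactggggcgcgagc

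The wider list of conserved YAP/TAZ target genes, which includes Ccn1, Ccn2, Amotl2 and Lats2, held 23 genes, of which 20 were tested. Of these, 10 were lower and 6 higher, with a median log2 fold change of -0.07, and with the offset 8 were lower and 9 higher, with a median of 0.0038. Over all genes tested, 33.6% were lower and 33.8% higher, and 27.5% and 35.8% with the offset. Gadd45a, a stress-response gene, fell by 1.17 ± 0.16 on the log2 scale (edgeR adjusted p = 4.57e-07) and by 1.44 with the offset. Tgfb2, which encodes a TGF-β ligand, fell by 0.66 ± 0.09 (edgeR adjusted p = 2.13e-07) and by 0.46 with the offset. Gadd45b rose by 1.06 ± 0.09 (edgeR adjusted p = 7.64e-11) and Foxf2, a forkhead transcription factor, by 0.71 ± 0.08 (edgeR adjusted p = 4.3e-08), with offset values of 0.74 and 0.51. Axl, a receptor tyrosine kinase and the most abundant gene of the list by FPKM, was at 183 and 194 FPKM in shCtrl and at 259 FPKM in both shUSP9X libraries. Axl rose by 0.53 ± 0.03 (edgeR adjusted p = 5.25e-14) and by 0.41 with the offset. Ankrd1, a muscle ankyrin repeat gene often used as a readout beside Ccn1 and Ccn2, was at -0.02 ± 0.05 (edgeR adjusted p = 0.722), and with the offset at -0.17 (edgeR adjusted p = 0.00101). Myof, which encodes myoferlin, was lower by 0.14 (edgeR adjusted p = 0.00041) without the offset and higher by 0.08 with it (edgeR adjusted p = 0.032).

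The kinase core around Lats1 and Lats2 had 23 genes tested, of which 17 were lower and 2 higher (73.9 and 8.7%, against 33.6 and 33.8% of all genes tested, median log2 fold change -0.30). With the offset 10 were lower and 7 higher (median -0.11), where 27.5 and 35.8% of all genes tested were. Stk3 and Stk4, which encode kinases that phosphorylate LATS1 and LATS2, moved in opposite directions in both fits. Stk3, which encodes MST2, was at 35.5 and 31.1 FPKM in shCtrl and at 12.8 FPKM in both shUSP9X libraries. Stk4, which encodes MST1, was at 8.68 and 9.57 FPKM in shCtrl and at 17.8 and 18.5 FPKM in shUSP9X. Neither gene overlapped between the groups, and the order of the pair turned, with Stk3 above Stk4 in shCtrl and below it in shUSP9X. Stk3 fell by 1.38 ± 0.07 on the log2 scale (edgeR adjusted p = 1.2e-15), and by 1.00 with the offset, while Stk4 rose by 1.04 ± 0.06 (edgeR adjusted p = 3.11e-14), and by 1.26 with the offset. Taok1, a kinase upstream of STK3 and STK4, fell by 2.12 ± 0.06 (edgeR adjusted p = 1.94e-21) and by 0.63 with the offset. Nf2, the scaffold merlin that brings LATS to the membrane, rose by 0.27 ± 0.05 (edgeR adjusted p = 3.35e-05) and by 0.17 with the offset, and was not called with an offset on GC content alone (0.09, edgeR adjusted p = 0.0957). Tnik was at -0.82 without the offset and at 0.34 with it, called both times.

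The STRIPAK complex, a PP2A phosphatase assembly that removes activating phosphates from STK3 and STK4, had 18 genes tested, of which 11 were lower and 5 higher (61.1 and 27.8%, against 33.6 and 33.8% of all genes tested, median -0.52). With the offset 8 were lower and 7 higher (median -0.03), against 27.5 and 35.8% of all genes tested. Slmap, the subunit that docks the kinases, fell by 1.07 ± 0.05 (edgeR adjusted p = 8.73e-16), and by 0.76 with the offset. Strn3, a striatin scaffold, fell by 0.92 in both fits. The kinase gene Stk26 fell by 1.22 without and 0.55 with the offset. Ppp2r1a and Ppp2r1b, the PP2A scaffold subunits, rose by 0.58 and 0.46, and with the offset by 0.34 and 0.42.

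The polarity, junction and cadherin inputs had 21 of 28 genes tested, of which 5 were lower and 10 higher (23.8 and 47.6%, against 33.6 and 33.8% of all genes tested, median 0.04). With the offset these were 2 and 11 (median 0.14), against 27.5 and 35.8% of all genes tested. Pals1, a scaffold of the Crumbs polarity complex, fell by 1.97 ± 0.10 (edgeR adjusted p = 2.15e-15), and Tjp1, which encodes the junction protein ZO-1, by 0.58 ± 0.04 (edgeR adjusted p = 4.47e-13), with offset values of -0.84 and -0.19. Ajuba, a LIM protein that binds LATS kinases, rose by 0.58 ± 0.05 (edgeR adjusted p = 8.03e-11), and by 0.46 with the offset. Rassf1 and Pard6b rose by 0.56 and 0.48, and with the offset by 0.26 and 0.32. Rassf2 was at -0.60 and, with the offset, at -0.11, which was not called.

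The list of angiomotins and YAP/TAZ partners, which holds 6 of the members, had 17 of 20 genes tested, of which 6 were lower and 8 higher (35.3 and 47.1%, against 33.6 and 33.8% of all genes tested, median 0.07). With the offset these were 2 and 9 (median 0.11), against 27.5 and 35.8% of all genes tested. Vgll3, a TEAD-binding cofactor, fell by 1.79 ± 0.13 (edgeR adjusted p = 1.83e-12), and by 0.69 with the offset. Vgll4, which competes with YAP for TEADs, was higher by 0.33 (edgeR adjusted p = 0.00969) and not called with the offset (0.08). Ywhag, one of the 14-3-3 genes whose proteins hold phosphorylated YAP in the cytoplasm, rose from 75.8 and 75.0 FPKM in shCtrl to 156 and 152 FPKM in shUSP9X, by 1.06 ± 0.04 on the log2 scale (edgeR adjusted p = 4.74e-19) and by 0.92 with the offset.

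Of 18 ubiquitin ligases and deubiquitinases of the pathway, which include Usp9x, 6 were lower and 5 higher (33.3 and 27.8%, against 33.6 and 33.8% of all genes tested, median -0.20). With the offset these were 5 and 6 (median 0.02), against 27.5 and 35.8% of all genes tested. Usp10 rose by 0.92 ± 0.05 (edgeR adjusted p = 2.12e-14), Otub1 by 0.56 and Smurf1 by 0.40, and with the offset by 0.77, 0.27 and 0.34. Usp47 fell by 0.93 ± 0.04 (edgeR adjusted p = 2.07e-16), and by 0.37 with the offset. Wwp1, a ligase of the NEDD4 family, was at -1.12 without the offset and at 0.07, not called, with it.

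**Figure D5:**
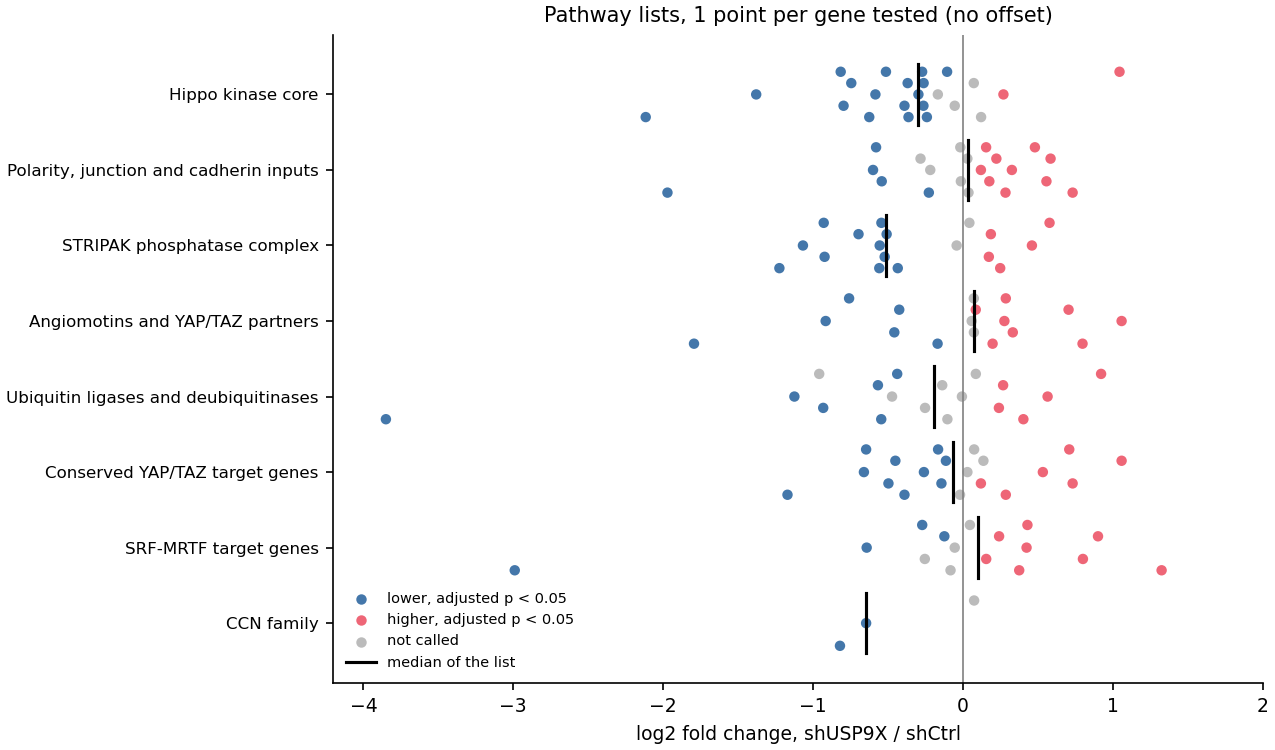
Log2 fold change without the offset (shUSP9X over shCtrl) of each gene tested in 8 pathway lists, coloured by the call, with the median of each list as a black line. Genes of the kinase core and of STRIPAK lie mostly below 0 (medians -0.30 and -0.52), and the lists of targets and partners spread to both sides.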

How the data were processed

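Libraries were grouped by the labels. The submitters' processing notes name fastp 0.18.0, Bowtie2 2.2.8, HISAT2, StringTie 1.3.1 and RSEM, and the study's methods give GRCm38. The library kit was NEBNext Ultra RNA, and strand use in counting is not given in the sources used here, so reads of overlapping genes cannot be told apart. The estimated counts that the authors deposited, 1 per gene in each library, were not normalized, and 6.395 to 6.69% of them were not whole. The authors also deposited FPKM values, scaled for length and library size.

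Estimated counts were rounded, filtered (filterByExpr), normalized by TMM and tested with edgeR 4.0.16 (R 4.3.3) with no covariates over 11448 genes, with the Benjamini-Hochberg adjustment. This test had been planned for whole counts. The common biological coefficient of variation was 0.0352. A loess offset (span 0.3) per library removed trends on GC content and log2 length (GENCODE M21, GRCm38, known for 99.8% of genes tested). FPKM ratios were compared by exact permutation tests. Counting errors and floors cover counting error only. The procedure was tested on simulated counts with and without a trend on GC content. No trend on length was simulated, so the joint offset was not tested on counts that hold both trends.

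Members, lists and tests were chosen with earlier results of these data known. Named genes are the members, Usp9x, the other TEADs, Ankrd1, Axl, Myof, up to 3 largest falls and rises per list (adjusted p under 0.05, mean log2 CPM of at least 3, no overlap), and the most abundant gene of each marker list. Some lists and genes that had been planned are not reported here. Marker genes other than the most abundant were named after their values were seen. The alternatives were DESeq2 1.42.0, other scalings and filters, limma 3.58.1 on FPKM in log2 with a pseudocount of 1 or 0.1 for genes at a mean FPKM of at least 1, the replicate block, offsets and each library left out. Offsets on GC content or length alone were added after seeing the data.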

Additional observations from a re-analysis of the deposited data

How the results depend on the processing

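The 17 alternatives called between 2985 and 4031 genes lower and between 3184 and 4567 higher over the table. Ccn1, Tead4 and Usp9x kept direction and call in each. The replicate numbers are shared by the groups, and across genes same-numbered libraries did not deviate together (r = -0.05). Whether they shared a preparation was not tested, and the labels do not say. The replicate block gave 3810 genes lower and 3855 higher and changed no call of a member, for example Ccn1 at -0.65.

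With the offset on GC content and length, and alike with the replicate block added (its value in parentheses where it differs), Wwtr1 was at 0.0072 (0.0068), Amot at -0.37, Amotl1 at 0.46, Lats1 at 0.32, Tead1 at 0.11, Ccn2 at -0.073, Myof at 0.076, Tnik at 0.34, Wwp1 at 0.069 (0.073), Mrtfb at 0.11 and Krt19 at -0.17 (-0.18). The cause was not tested. Among the other genes named, Nf2, Tnik, Vgll4, Rassf2, Wwp1, Mrtfb, Tpm1, Krt19, Dcn and Tead3 lost their call in at least 1 alternative. The kinase core then had 10 genes lower and 7 higher, the polarity list 2 lower and the angiomotin and partner list 2 lower. With the GC offset alone, added after seeing the data, Yap1 was at -0.014, Wwtr1 at -0.041, Amotl2 at 0.073, Lats1 at -0.0030, Ankrd1 at 0.015, Krt19 at -0.074 and Dcn at 0.086, and the polarity list had 5 higher. With the length offset alone, also added after seeing the data, Yap1 was at 0.26 and called, Amot at -0.29, Amotl1 at 0.50, Lats1 at -0.015, Lats2 at -0.10, Myof at 0.34, Tnik at 0.046, Rassf2 at 0.00031, Mrtfb at 0.33 and Krt19 at -0.039. The kinase core had 6 lower and 7 higher and the target list 6 lower and 10 higher, where 27.2% of all genes tested were lower and 39.9% higher.

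DESeq2 gave Amot -0.75 and Amotl1 -0.16, neither called, with 3 STRIPAK genes higher, 3 partner genes lower and 3 ubiquitin genes higher, where it called 20% of its genes lower and 21.3% higher. Upper quartile scaling called Yap1 at 0.11 (edgeR adjusted p = 0.0321) and gave Ankrd1 0.013. Limma gave Amotl1 -0.064 on log2(FPKM + 1) and -0.068 on log2(FPKM + 0.1), not called, 6 polarity genes higher on both scales and 2 SRF-MRTF genes lower on the second. Amot has no limma value, being under the FPKM minimum. Counts per kilobase gave a log2 difference of -0.12 for Lats1 to Lats2 and of -0.45 for Amotl1 to Amotl2. With each library left out in turn, Amot ranged from -0.88 to -0.61, Amotl1 from -0.18 to -0.15, Ccn2 from 0.039 to 0.13 and Ankrd1 from -0.047 to 0.021. Higher genes then ranged from 6 to 9 in the polarity list, from 3 to 4 in the ubiquitin list and from 0 to 1 in the CCN list.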

Other observations

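The SRF-MRTF targets, which share their actin input with YAP and TAZ, had 16 of 21 genes tested, of which 4 were lower and 8 higher (against 33.6 and 33.8% of all genes tested, median log2 fold change 0.10). With the offset these were 4 and 7 (median 0.10), against 27.5 and 35.8% of all genes tested. Srf was at 12.4 and 13.7 FPKM in shCtrl and at 23.4 and 23.1 FPKM in shUSP9X, and rose by 0.90 ± 0.08 on the log2 scale (edgeR adjusted p = 1.39e-10) and by 0.86 with the offset. The cytoplasmic actin genes Actg1 and Actb rose by 1.32 and 0.80, and with the offset by 1.09 and 0.57. Cald1, which encodes the actin-binding protein caldesmon, fell by 0.64 and by 0.32 with the offset, and Tpm1, a tropomyosin gene, was lower by 0.12 and by 0.24 with the offset, and was not called without shUSP9X replicate 2 (-0.10, edgeR adjusted p = 0.118). Mrtfb, an SRF coactivator, was lower by 0.27 without the offset (edgeR adjusted p = 0.00476) and not called with it (0.11).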
